A study of Mus musculus with 4 samples.

Results

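The genes described here encode the machinery that makes ribosomes in the nucleolus: RNA polymerase I with its initiation factors, the proteins of the small nucleolar ribonucleoprotein particles (snoRNPs) that modify ribosomal RNA, and the assembly factors of the small and large ribosomal subunits. The list holds 47 genes, chosen by name with earlier results of these data known. A member was measured through the row of the deposited table whose platform annotation held exactly 1 distinct gene symbol, equal to the member's, and 43 of the 47 had such a row among 30142 genes tested. Npm3, Gnl3, Nop56 and Ebna1bp2 had none. Of these 4, 3 occur in rows annotated to several genes, which were not used. No filter on low values was applied, so all 43 entered the test.

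The study compared RNA of outgrowths from wild-type and Tip110-/- mouse blastocysts. Tip110 is the product of Sart3, a protein that helps the U4 and U6 snRNAs to reassemble during splicing. Blastocysts were flushed at 3.5 days post coitum after crosses of Tip110+/- parents and grown one per well for 4 to 6 days in a stem cell medium whose serum was replaced (KOSR-ESCM). All 4 samples share this cross and medium, and each embryo was genotyped from cDNA of its own RNA. Each genotype had 2 Affymetrix whole-transcript arrays, of which replicate 1 held RNA of 3 outgrowths pooled and replicate 2 that of 1 outgrowth. The strain is not given in the sources used here, and an outgrowth is a mixture of cell types, so a level is a sum over them. Fewer cells of a type and less RNA per cell cannot be told apart in such samples.

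In the nucleolus RNA polymerase I transcribes the long precursor of the 18S, 5.8S and 28S ribosomal RNAs, and initiation needs the polymerase-bound factor RRN3 and the DNA-binding protein UBF. Box C/D snoRNPs guide methylation of ribose and box H/ACA snoRNPs guide the conversion of uridine to pseudouridine, while helicases, GTPases and scaffold proteins fold, cut and export the precursors of both subunits. The pathway is highly active in the fast-dividing cells of the epiblast, and many mouse embryos that lack one of its factors stop developing before or around implantation.

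Levels are given as deposited, on a log2 scale inferred from the range of the values. In this order, wild-type pool, wild-type single, Tip110-/- pool and Tip110-/- single, the median of the antigenomic background rows was 2.83, 2.82, 3.05 and 2.94, and the median over all genes tested was 4.21, 4.22, 4.45 and 4.32. The samples also differed in measures other than the members' signals. Per outgrowth, 248.7 pg of RNA was collected in the pool and 178 pg in the single sample of wild-type, while the mutant samples gave 55 pg and 144 pg. The median over positive control rows was 9.80 and 9.66 in wild-type against 8.69 and 9.51 in Tip110-/-, and the median of the spike rows dap, lys, phe and thr was 6.33 and 6.43 against 7.57 and 7.65. The Tip110-/- pool had the lowest positive control median and the least RNA per outgrowth. The part of these differences in any result was not tested, and they cannot be told apart from genotype. Sart3, the targeted gene, had a signal of 4.94 (pool) and 5.98 (single) in wild-type against 4.28 and 4.54 in Tip110-/-, lower in both mutant arrays without passing the threshold (limma adjusted p = 0.386). Whether its probes lie in the deleted part is not given in the sources used here.

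On the deposited scaling most measured differences of the ribosome biogenesis genes were under 2-fold, as for all genes, with 5 exceptions. Among the 43 members 38 (88.4%) differed by less than 2-fold, that is by less than 1 on the log2 scale, where 89.9% of all genes tested did. Since most genes on the array lie near background, the same share was also taken over the 8833 genes with a mean signal of at least 5.88, the mean of the dimmest member, a choice made after seeing the data; it was 72.7%. The median difference of the members, Tip110-/- minus wild-type, was -0.05, against 0.15 for all genes and -0.04 for the 8833 brighter genes. Relative to all genes the members' median was thus -0.20, and it turned to 0.076 under quantile normalization and to 0.035 without Tip110-/- replicate 1. With arrays centred on positive control rows the median difference was 0.58 for the members and 0.78 for all genes. The 5 exceptions were separated between the genotypes. Bop1, a scaffold of large subunit assembly, and Dkc1, the pseudouridine synthase of box H/ACA snoRNPs, were lower in Tip110-/- at an unadjusted p under 0.05. Wdr12 and Rrp1b, both of large subunit assembly, had lower signals and Tsr1, a factor of late small subunit assembly in yeast, a higher signal in both mutant arrays without passing that test.

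**Figure D1:**
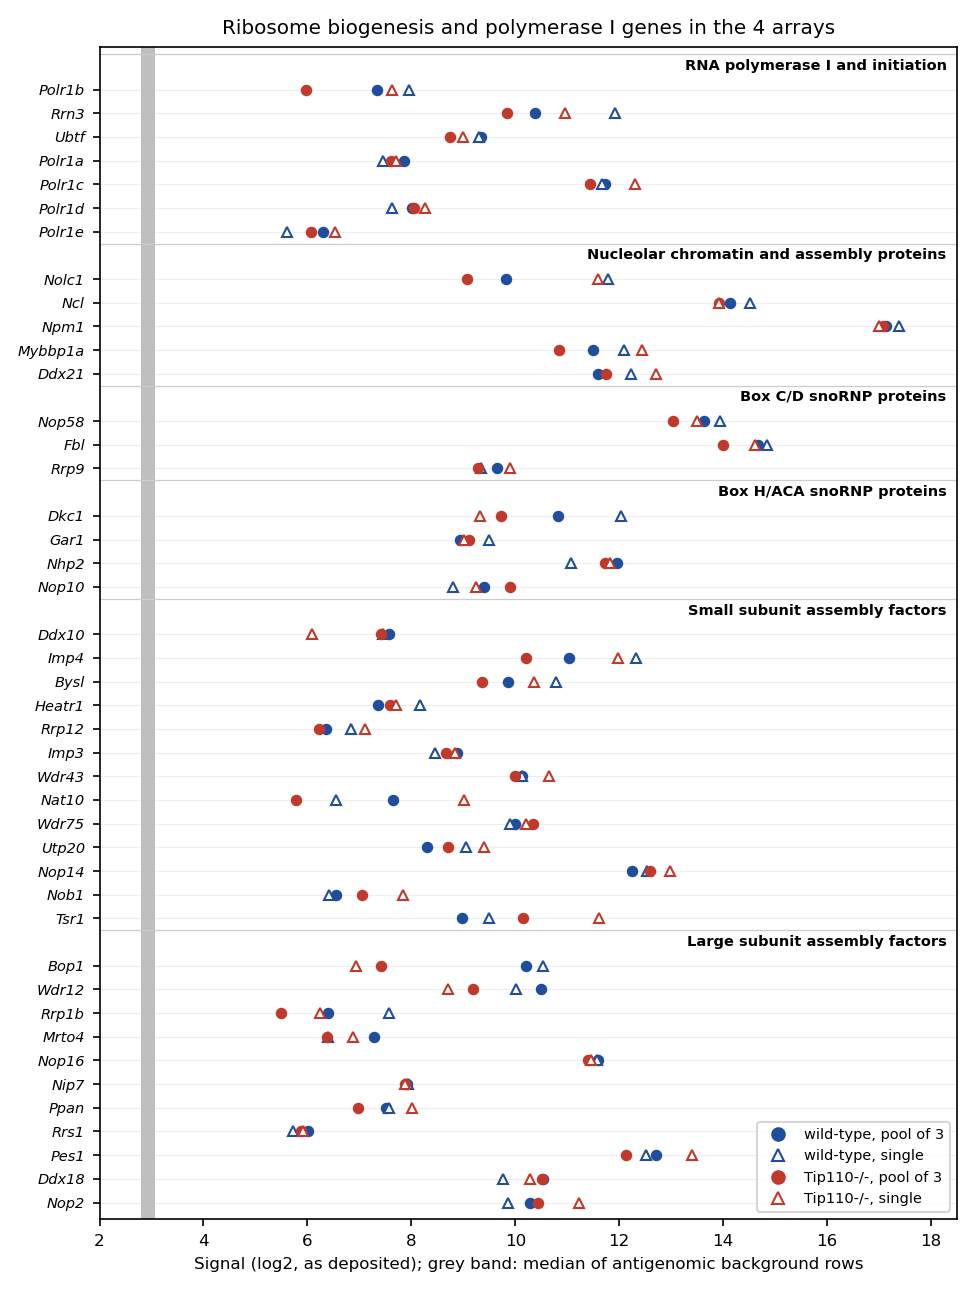
Signal of each of the 43 measured members (horizontal axis, log2 as deposited) in the 4 arrays, ordered within each role by the genotype difference. Circles are pools of 3 outgrowths, triangles single outgrowths, blue wild-type and red Tip110-/-, and the grey band spans the medians of the antigenomic background rows (2.82 to 3.05); all members lie above the band, and the colours separate most widely for Bop1.

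No member passed limma's threshold of 0.05 after Benjamini-Hochberg adjustment over all 30142 genes, and neither did any other gene (0% called; 12.7% of all genes had an unadjusted p under 0.05). The smallest adjusted p among members was 0.293. With 2 arrays in each group an exact two-sided permutation test of a single gene cannot give a p below 0.333, so unadjusted limma p-values are used here only to describe size against spread. At an unadjusted p under 0.05, 2 members were lower (4.65%) and 0 were higher, against 3.67% lower and 8.99% higher among all genes and 8.73% lower and 3.86% higher among the 8833 brighter genes. Both lower members differed by at least 2-fold, a mark that 3% of all genes and 8.3% of the brighter genes reached on the lower side and 1.53% and 3.72% on the higher side. The members' share of lower calls thus lay near that of all genes. When each array was centred on its positive control rows, the split was 1 lower and 3 higher: Bop1 was the lower one, and Tsr1, Nob1 and Nop2 were the higher ones. That centring put the median of all genes at 0.78, with 1.68% of all genes lower and 8.01% higher. Without wild-type replicate 2 only Bop1 was lower and none higher, where 3.56% of all genes were lower and 3.87% higher. Without Tip110-/- replicate 1 there were 2 lower members, Bop1 and Ddx10, and 2 higher, beside 3.19% and 8.56% of all genes.

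The median half-width of the 95% intervals over members was 1.36 on the log2 scale, a 2.57-fold difference in either direction, and in 41 of 43 members the interval held 0. A member without a call is therefore not shown to be equal in the genotypes. The median gap between the 2 wild-type arrays was 0.43 and that between the 2 Tip110-/- arrays 0.61, against a median absolute difference between genotypes of 0.33. Over the 8833 brighter genes these medians were 0.52, 0.53 and 0.53. In 11 of 43 members the genotype difference exceeded the gaps within both genotypes, a count that was not taken over all genes.

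**Figure D2:**
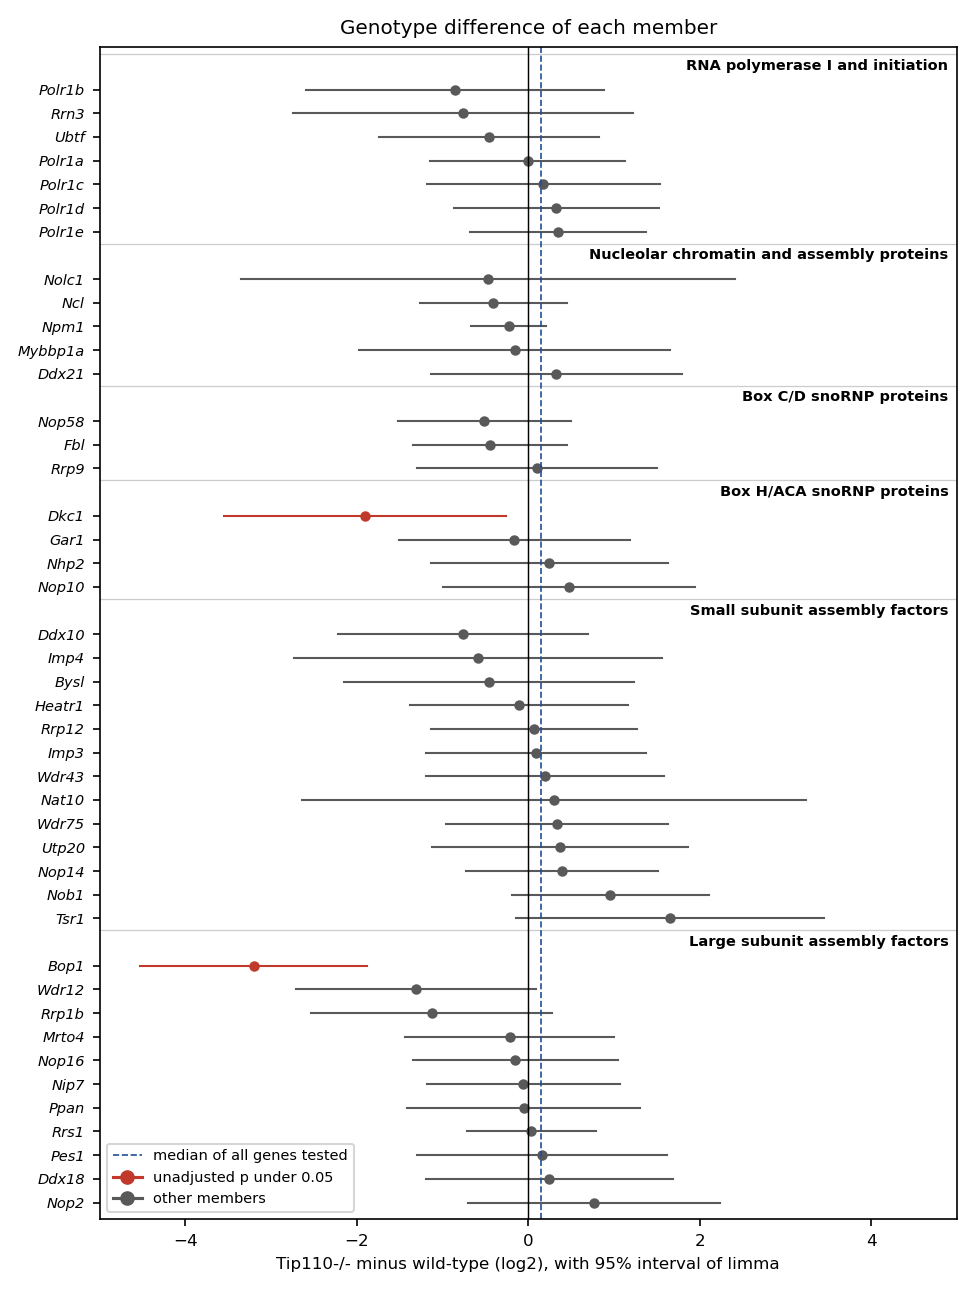
Difference between genotypes for each member (horizontal axis, Tip110-/- minus wild-type, log2) with limma's 95% interval, grouped by role. Red marks the 2 members at an unadjusted p under 0.05, Bop1 and Dkc1, and the dashed line the median of all genes tested (0.15); 41 intervals include 0.

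Both Tip110-/- arrays lay below both wild-type arrays in 12 members, where 12.9% of all genes and 26.7% of the brighter genes did so, which is close to the members' 27.9%. They lay above both wild-type arrays in 6 members (14.0%), against 39.9% of all genes and 18.8% of the brighter genes. The groups overlapped in the other 25. Many separated members differed little, 9 of the 18 by under 0.5. These counts depended on the scaling. They were 13 below and 3 above with arrays centred on the gene median, and 6 and 6 under quantile normalization. With arrays centred on positive control rows they were 1 and 23. That centring also moved the median difference of all genes from 0.15 to 0.78. The shares over all genes were not counted in these settings, so the shifts are not shown to be particular to the members.

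Markers of cell types differed between the same arrays. All 8 epiblast markers had a row, and their summed signal, as log2, was 14.46 and 15.68 in wild-type against 11.22 and 10.05 in Tip110-/-, with 6 of 8 lower at an unadjusted p under 0.05. Proliferation markers, 7 of 8 with a row, summed to 14.05 and 14.62 against 13.04 and 12.99, with 5 of 7 lower. Pcna was the brightest of the 7 in every array, at 13.06 and 13.07 against 12.46 and 12.49. The median difference of the 7 was -2.78. The 6 of 8 trophoblast markers with a row summed to 17.80 and 17.27 against 17.79 and 18.52, led by Krt8 and Krt18, with no call, while Cdx2 lay between 4.66 and 6.10. The 43 members summed to 17.93 and 18.20 against 17.75 and 17.95, a sum carried largely by Npm1 (17.13, 17.39, 17.08 and 16.99). Their median signal was 9.82 and 9.76 in wild-type against 9.29 and 9.39 in Tip110-/-. Primitive endoderm markers (7 of 8) summed to 8.84 and 7.30 against 7.82 and 8.47, with Sox17 and Sox7 under the median of all genes in every array. Fibroblast markers (8 of 8) summed to 6.67 to 6.75 against 6.82 to 7.02, with single values between 3.29 and 4.38. Blood markers (5 of 6) summed to 11.07 and 8.11 against 10.29 and 10.61, carried by Cd68 and Csf1r, with Ptprc between 3.50 and 3.70. The part of cell composition in the differences of Bop1, Dkc1 and Tsr1 was not tested.

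RNA polymerase I was measured through all 7 of its listed genes, and none had an unadjusted p under 0.05. The median difference of the 7 was -0.01, with a range from -0.85 to 0.35. Polr1a, the largest catalytic subunit, was at 7.86 and 7.46 in the wild-type pool and single outgrowth and at 7.61 and 7.71 in the Tip110-/- ones. The Tip110-/- values lay between the wild-type values, and the difference was -0.01 ± 0.44 (SE). Polr1b, the other large catalytic subunit, was at 7.34 and 7.96 against 5.98 and 7.62. Only the Tip110-/- pool stood clearly lower, and the difference of -0.85 ± 0.68 (SE) was smaller than the gap of 1.64 between the 2 Tip110-/- arrays, so it did not pass (limma adjusted p = 0.535). It was -1.67 without Tip110-/- replicate 2 and -0.03 without Tip110-/- replicate 1.

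Polr1c and Polr1d, subunits shared with RNA polymerase III, differed by 0.18 and 0.33. Polr1e, a subunit found only in polymerase I, was at 6.30 and 5.61 in wild-type against 6.07 and 6.54 in Tip110-/-, with groups that overlapped and the largest difference upward among the 7, 0.35 ± 0.40 (SE). Ubtf, which encodes the architectural factor UBF, was at 9.34 and 9.31 against 8.75 and 8.99. Both mutant values were lower, by -0.46 ± 0.50 (SE), which did not pass (limma adjusted p = 0.640). Rrn3, the factor that brings the polymerase to the promoter, was at 10.39 and 11.91 against 9.83 and 10.96. In each genotype the single outgrowth was higher than the pool by more than 1, the groups overlapped, and the difference was -0.76 ± 0.77 (SE).

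Promoters of members were examined for the E-box CACGTG, the site bound by MYC and MAX, because MYC is a known activator of ribosome biogenesis genes. The motif is its own reverse complement, so both strands were covered. The RefSeq promoter table of build GRCm38.p6 lists, for each start site, 250 bases before and 50 after it, and 42 of the 47 members matched it by symbol. Npm1, Fbl, Bop1, Rrs1 and Rrp12 had no entry. The E-box stood in at least 1 listed promoter of 8 members (19.0%), against 8.09% of the 27025 genes in the table. These shares were not matched for signal or for the number of listed promoters per gene, and their difference was not tested. Rrn3 had the motif at 2 places upstream of its start, shown here in capitals within the 250 bases before the start site, chr16:13780449-13780698 on the + strand:
Rrn3: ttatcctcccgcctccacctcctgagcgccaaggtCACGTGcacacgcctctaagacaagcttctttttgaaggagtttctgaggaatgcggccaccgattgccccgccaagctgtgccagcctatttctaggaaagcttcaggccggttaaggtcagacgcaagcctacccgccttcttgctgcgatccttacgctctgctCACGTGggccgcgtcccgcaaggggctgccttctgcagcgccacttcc

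The other 7 matches are shown with up to 10 bases on each side, cut where the listed window ends, so that the motif (capitals) can be compared among members that differed in opposite directions.
Imp4: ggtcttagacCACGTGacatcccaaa
Mybbp1a: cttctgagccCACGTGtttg
Nop2: gtccctggatCACGTGtgttccggtg
Pes1: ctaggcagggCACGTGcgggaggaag
Tsr1: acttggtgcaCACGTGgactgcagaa
Utp20: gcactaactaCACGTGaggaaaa
Wdr43: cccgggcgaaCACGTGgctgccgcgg
These lie on GRCm38.p6 at chr1:34439698-34439723 (Imp4), chr11:72441357-72441376 (Mybbp1a), chr6:125131813-125131838 (Nop2), chr11:3963967-3963992 (Pes1), chr11:74898094-74898119 (Tsr1) and chr17:71616222-71616247 (Wdr43), all on the + strand, and at chr10:88826765-88826787 on the - strand for Utp20. The 8 measured members with the motif ranged from -0.76 for Rrn3 to 1.65 for Tsr1, with a median difference of 0.18, and the 30 measured members with a listed promoter and no match had a median of -0.05. Dkc1 and Wdr12, both lower in Tip110-/- arrays, were among those with no match in the listed windows. A match describes these letters only and does not show binding.

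Of the nucleolar proteins that bind ribosomal DNA, precursor RNA or snoRNPs, 5 of 7 were measured and none had an unadjusted p under 0.05. Ncl, which encodes nucleolin, a protein of the dense nucleolar regions that binds precursor RNA, was at 14.14 and 14.52 in wild-type against 13.92 and 13.92 in Tip110-/-. Npm1, which encodes nucleophosmin, was at 17.13 and 17.39 against 17.08 and 16.99. For both genes the mutant arrays lay below the wild-type arrays, but only by -0.41 ± 0.33 (SE) and -0.23 ± 0.17 (SE). The Npm1 interval was the narrowest of all members, from -0.66 to 0.21, so that on the deposited scaling a 2-fold difference lies outside it. With arrays centred on positive control rows the Npm1 difference was 0.40, and no interval was taken in that setting. Nolc1, a chaperone of snoRNPs, was at 9.82 and 11.79 against 9.08 and 11.60. Its pool and single values lay 1.97 apart in wild-type and 2.52 apart in Tip110-/-, while the genotypes differed by -0.47 ± 1.12 (SE). Ddx21, a helicase of polymerase I transcription and RNA processing, was at 11.59 and 12.22 against 11.75 and 12.72, a difference of 0.33 ± 0.57 (SE) with overlapping groups. Mybbp1a, a nucleolar repressor of transcription, differed by -0.16.

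The box C/D snoRNP had 3 measured genes of 4. Fbl, which encodes fibrillarin, the methyltransferase of the particle, was at 14.68 and 14.85 in wild-type against 14.01 and 14.62 in Tip110-/-. Nop58, a core protein of the particle, was at 13.63 and 13.94 against 13.03 and 13.50. In both genes the mutant arrays were lower without overlap, at -0.45 ± 0.35 (SE) and -0.52 ± 0.39 (SE), and neither passed (limma adjusted p = 0.528 and 0.521). Rrp9, a protein specific to the U3 particle, was at 9.65 and 9.34 against 9.29 and 9.90, with overlap and a difference of 0.10 ± 0.55 (SE).

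Of the 4 proteins of the box H/ACA particle, which form one complex, 1 was lower at an unadjusted p under 0.05 and 3 had no call. Dkc1 encodes the catalytic subunit dyskerin, also a part of telomerase, and lies on chromosome X. The sample labels used here give no embryo sex, and the part of sex in its values was not tested. Dkc1 was at 10.82 and 12.04 in wild-type and at 9.74 and 9.33 in Tip110-/-. Both mutant arrays were lower than both wild-type arrays, with means of 9.53 ± 0.29 (SD, n = 2) against 11.43 ± 0.86 (SD, n = 2). The difference was -1.90 ± 0.64 (SE), 3.73-fold, with a 95% interval from -3.54 to -0.25 (limma adjusted p = 0.369). Before adjustment the limma value was 0.0312. With arrays centred on positive control rows it was 0.0693, at a difference of -1.27. It was 0.0698 without Tip110-/- replicate 1 (difference -2.10), 0.117 without Tip110-/- replicate 2 (-1.70) and 0.140 without wild-type replicate 2 (-1.29).

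None of the partners of dyskerin had a call. Nop10, the smallest of them, was at 9.40 and 8.79 in wild-type against 9.90 and 9.24 in Tip110-/-, with overlap and a difference of 0.47 ± 0.57 (SE). Nhp2 differed by 0.25 and Gar1 by -0.16, both with overlapping groups. The differences between Dkc1 and its partners were not tested.

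Small subunit assembly had 13 measured genes of 13 and none with an unadjusted p under 0.05, at a median difference of 0.19. In 4 of them, Tsr1, Nob1, Nop14 and Wdr75, both mutant arrays lay above both wild-type arrays, and in 1, Ddx10, below. Of all genes 39.9% lay above and 12.9% below, and of the 8833 brighter genes 18.8% and 26.7%. Tsr1, which in yeast occupies late precursors of the small subunit, was at 8.98 and 9.49 in wild-type and at 10.16 and 11.61 in Tip110-/-. The difference was 1.65 ± 0.70 (SE), with a 95% interval from -0.14 to 3.45 (limma adjusted p = 0.397), and the Tip110-/- single outgrowth was the highest. Its unadjusted p was under 0.05 with arrays centred on positive control rows (difference 2.28), under quantile normalization (1.64) and without Tip110-/- replicate 1 (2.38).

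Nob1, the endonuclease that makes the final cut of 18S rRNA, acts on the same late precursors. It was at 6.56 and 6.41 in wild-type against 7.05 and 7.83 in Tip110-/-, a difference of 0.96 ± 0.45 (SE) that did not pass (limma adjusted p = 0.410). Nop14 and Wdr75, which act early in the small subunit precursor, differed by 0.39 and 0.33. Ddx10, a helicase, was at 7.56 and 7.46 against 7.41 and 6.09. Only the Tip110-/- single outgrowth stood apart, and the difference was -0.76 ± 0.57 (SE). It was -1.42 without Tip110-/- replicate 1 and -0.10 without Tip110-/- replicate 2.

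Nat10, the enzyme that acetylates cytidines of 18S rRNA, had the widest spread of all members. It was at 7.65 and 6.55 in wild-type and at 5.79 and 9.02 in Tip110-/-, so the mutant pool was the lowest and the mutant single outgrowth the highest of the 4. The difference of 0.30 ± 1.14 (SE) carries no direction. Imp4, Bysl and Heatr1 differed by -0.59, -0.46 and -0.11, and Rrp12, Imp3, Wdr43 and Utp20 by 0.07 to 0.37, all with overlapping groups.

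Large subunit assembly held the largest difference of any member. Bop1 encodes a scaffold of the PeBoW complex, in which it joins PES1 and WDR12 and which is needed to process the precursors of 28S and 5.8S rRNA. Its wild-type signal was 10.21 and 10.54, against 7.42 and 6.93 in Tip110-/-, which gives means of 10.38 ± 0.23 (SD, n = 2) against 7.18 ± 0.35 (SD, n = 2). The mutant arrays were lower by far more than the gaps of 0.33 and 0.49 within the genotypes. The difference was -3.20 ± 0.52 (SE), 9.20-fold, with a 95% interval from -4.53 to -1.88 (limma adjusted p = 0.293). Before adjustment the limma value was 0.00156.

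The Bop1 difference ran from -3.45 to -2.57 over the main and 13 other settings, and its unadjusted p was under 0.05 in all 14. Its limma adjusted p ranged from 0.0304 to 0.598. The lowest came with arrays centred on positive control rows, the only setting in which Bop1 passed, and in that setting 680 genes passed.

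The other components of the PeBoW complex had no call, and their differences from Bop1 were not tested. Wdr12 was at 10.50 and 10.02 in wild-type against 9.19 and 8.70 in Tip110-/-. Both mutant arrays were lower, at -1.31 ± 0.55 (SE) or 2.48-fold, with a 95% interval from -2.71 to 0.09 (limma adjusted p = 0.397). The pool and the single outgrowth gave nearly the same value, -1.30 and -1.32. Pes1 was at 12.70 and 12.51 against 12.13 and 13.39. The mutant values lay on either side of the wild-type values, and the difference was 0.16 ± 0.57 (SE), with a 95% interval from -1.30 to 1.62.

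Among the remaining large subunit factors, Rrp1b, a nucleolar homologue of yeast RRP1, was at 6.40 and 7.57 in wild-type against 5.48 and 6.24 in Tip110-/-. The difference was -1.12 ± 0.55 (SE) without overlap (limma adjusted p = 0.420), and it was -1.71 without wild-type replicate 1 and -0.54 without wild-type replicate 2. Nop2, a methyltransferase of 28S rRNA, was at 10.28 and 9.85 against 10.44 and 11.22, higher in both mutant arrays by 0.77 ± 0.57 (SE). The 6 others, Nop16, Nip7, Ppan, Mrto4, Rrs1 and Ddx18, differed by -0.22 to 0.25. For Nip7 and Nop16 the groups were separated although the differences were only -0.06 and -0.15.

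**Figure D3:**
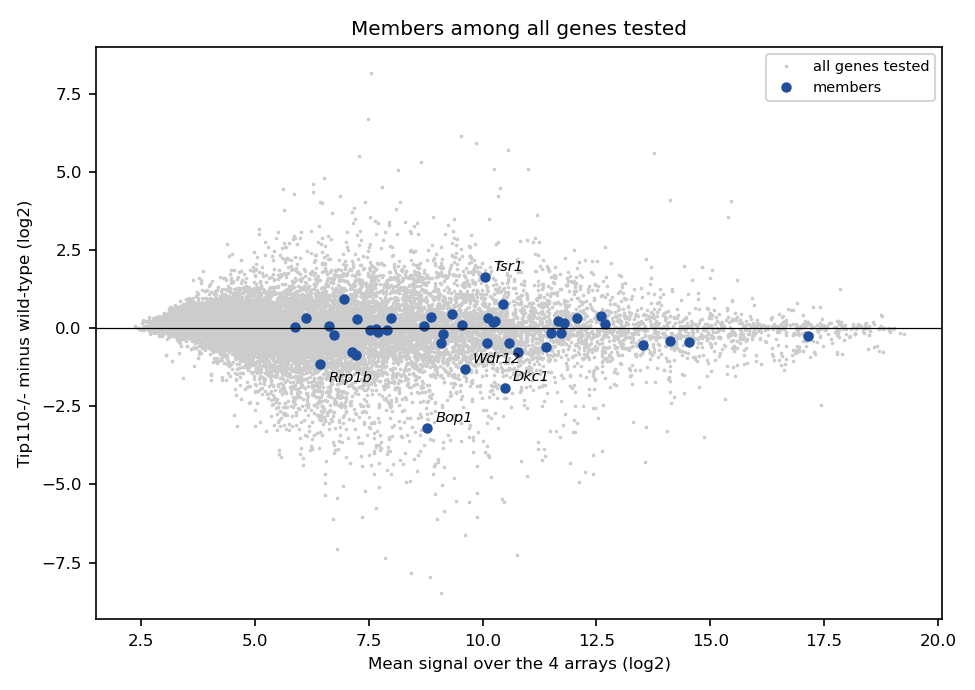
Genotype difference (vertical axis, Tip110-/- minus wild-type, log2) against mean signal over the 4 arrays (horizontal axis, log2) for all 30142 genes tested (grey) and the 43 members (blue). Members named are the 5 that differed by at least 1, of which Bop1, Dkc1, Wdr12 and Rrp1b were lower and Tsr1 higher; the others lie in the central band of genes of similar brightness.

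Comparing like samples, the pools and the single outgrowths gave different pictures for many members. Between pools 32 of 43 members were lower in Tip110-/-, with a median difference of -0.23. Between single outgrowths 19 of 43 were lower, with a median of 0.27. Among the 8833 brighter genes 5726 were lower between pools (median -0.27) and 3866 between single outgrowths (median 0.14). Over all 30142 genes these counts were 10540 (median 0.16) and 10346 (median 0.11). Signs matched in 26 members, 17 lower in both and 9 higher in both. Of the 17 that did not match, 15 were lower between pools and higher between single outgrowths. Matches of sign were not counted over all genes. In 33 of 43 members the Tip110-/- pool was lower than the Tip110-/- single outgrowth, while in wild-type the pool was lower in 22. Among the 8833 brighter genes the pool was lower in 5463 for Tip110-/- and in 3757 for wild-type. The Tip110-/- pool was also the array with the lowest positive control median (8.69), and the part of that in the members' values was not tested. Bop1 was lower in both comparisons, at -2.79 and -3.61, and so was Dkc1, at -1.09 and -2.71. Tsr1 was higher in both, at 1.18 and 2.13.

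**Figure D4:**
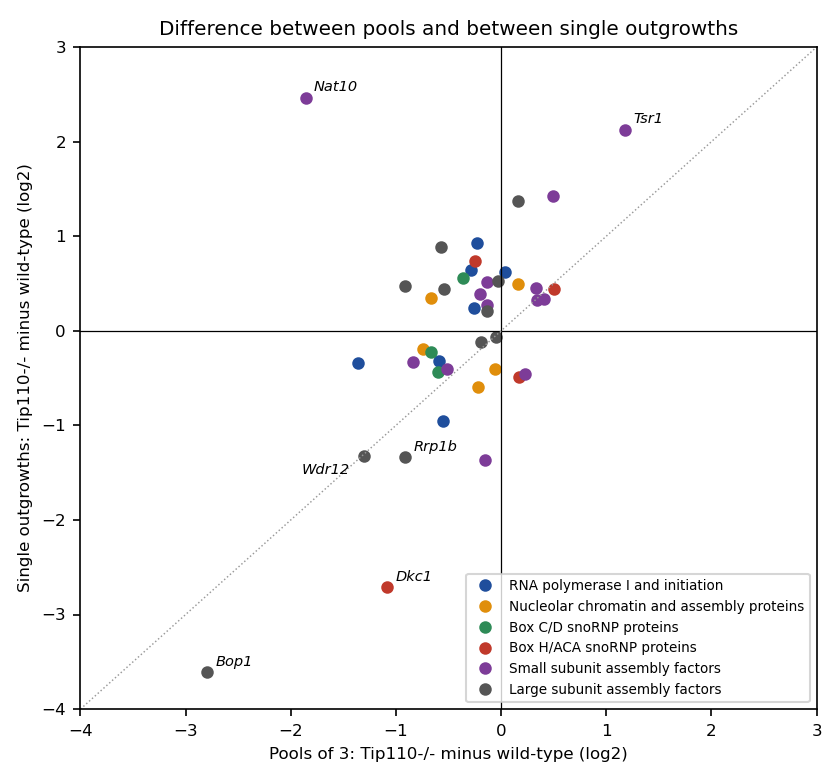
Tip110-/- minus wild-type (log2) between the pools of 3 outgrowths (horizontal axis) and between the single outgrowths (vertical axis) for the 43 members, coloured by role, with a dotted line of equality. Bop1, Dkc1, Wdr12 and Rrp1b lie in the lower left quadrant and Tsr1 in the upper right; 15 members lie in the upper left, among them Nat10 at -1.86 and 2.46.

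A wider set of 84 other genes of the pathway was taken from textbook knowledge, with earlier results of these data known. Of these, 79 had a row. At an unadjusted p under 0.05, 5 were lower and 0 higher, and 74 had no call, where 3.67% of all genes and 8.73% of the brighter genes were lower. The median difference was -0.14. The 5 were Tbl3 and Utp15, components of the small subunit processome, Wdr74 and the ATPase Mdn1, which act on the large subunit precursor, and Polr2h, a subunit shared by RNA polymerases I, II and III. Tbl3 was at 7.92 and 7.22 in wild-type against 6.01 and 5.13 in Tip110-/-, a difference of -2.00 ± 0.49 (SE, limma adjusted p = 0.339). Wdr74 was at 11.35 and 10.88 against 9.09 and 9.70, a difference of -1.72 ± 0.56 (SE, limma adjusted p = 0.363). For both, the 2 mutant arrays were lower than the 2 wild-type arrays.

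Polr2h was at 11.16 and 11.97 against 10.18 and 9.73, a difference of -1.61 ± 0.57 (SE, limma adjusted p = 0.382). Utp15 was at 8.74 and 8.19 against 6.76 and 7.40, a difference of -1.38 ± 0.51 (SE, limma adjusted p = 0.385). Mdn1, at 6.96 and 8.56 against 5.99 and 6.14, differed by -1.69 ± 0.63 (SE, limma adjusted p = 0.386). The count of 5 called genes was 3 with the replicate number as a block, where 3.69% of all genes were lower and 7.38% higher. It was 8 under cyclic loess (5.87% of all genes lower and 3.18% higher) and 9 with no intensity trend (4.91% and 5.5%). With arrays centred on positive control rows it was 10 (1.68% and 8.01%). Genes with a symbol that begins with Rpl or Rps (leaving out Rps6k), together with Fau, numbered 43 with a row and had a median difference of -0.05, with 2 lower and 0 higher at an unadjusted p under 0.05, a mark with the same 3.67% and 8.73% behind it; the name rule also takes a few genes that are not ribosomal proteins, such as Rps19bp1. The 2, Rpl10l and Rpl39l, are paralogues of ribosomal protein genes, and members of such families can share probes.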

How the data were processed

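RNA of 4 outgrowth samples was measured on Affymetrix whole-transcript arrays. The table deposited by the authors holds log2 values for 72688 rows. Per the submitters' processing notes, the tools were Transcriptome Analysis Console and Affymetrix Expression Console, with no role stated. How the values were normalized is not given in the sources used here, and neither is a genome build. The labels state 144 pg of RNA per array and the design text 100 pg.

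Of 65956 transcript cluster rows, 30604 had 1 gene symbol in the platform annotation, 2146 several and 33206 none. Older symbols were replaced through their Entrez ID from the GRCm38.p6 gene table, and the row with the highest mean was kept for 355 genes with several, which left 30142 genes. All were fitted with limma 3.58.1 in R 4.3.3 (lmFit, eBayes with an intensity trend, genotype as the only term), with two-sided p-values adjusted by Benjamini-Hochberg. The fit was also run on values simulated under its own model, without differences in scaling between arrays. That run checks the code and not how well the model holds for these 4 arrays. The members and gene lists were chosen with earlier results of these data known. Values in every array were printed for Sart3, members at an unadjusted p under 0.05 or separated by at least 1, the extremes of each role group and 10 preset members; Nob1 and Nat10 were given in full, and Mdn1 named, after their values were seen. Nothing in the labels says that samples of equal replicate number share a litter or day. The labels call the replicates biological, and p-values measure only the spread between these samples. The number of arrays limits the precision. Tables were joined with pandas 2.3.3, and plots drawn with matplotlib 3.10.9.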

Additional observations from a re-analysis of the deposited data

How the results depend on the processing

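With all 4 arrays kept, Bop1 was lower at an unadjusted limma p under 0.05 in every setting run. Dkc1 was so in all of these but the centring on positive control rows. Wdr12 and Rrp1b were lower, and Tsr1 higher, in all 14 settings, mostly short of that mark. The settings draw on the same 4 arrays, so they do not repeat the experiment. The count of lower members was 1 with arrays centred on positive control rows, where 1.68% of all genes were lower. It was 4 without an intensity trend, where 4.91% of all genes were lower. Higher members numbered 3 with positive control centring, 1 without a trend and 1 under quantile normalization. In these settings 8.01%, 5.5% and 3.55% of all genes were higher. Members at least 2-fold apart at that mark numbered 4 with positive control centring, a count not taken over all genes in that setting. Members with mutant arrays below numbered 1 with positive control centring and 6 under quantile normalization. Those above numbered 23 with positive control centring and 3 with centring on the gene median. These 2 counts were not taken with arrays left out, nor over all genes in these settings. The members' median relative to all genes was 0.076 under quantile normalization and ran from -0.35 to 0.035 with arrays left out, highest without Tip110-/- replicate 1. Called genes among the other pathway genes numbered 10 with positive control centring, 8 under cyclic loess and 9 without a trend, and 2 to 7 with arrays left out. Genes past the adjusted threshold numbered 680 with positive control centring and 0 in the other settings. The cause of these shifts was not tested. With the replicate number as a block, 3 members were lower, Rrp1b in addition, and 3 other pathway genes were called. In that setting 3.69% of all genes were lower and 7.38% higher. Deviations of same-numbered arrays correlated at -0.09 across genes, so the numbers were not taken as pairs. The positive control rows are marked as such only by their names. A left-out array leaves 1 sample in its group, assumed to vary like the other. Centring on positive control rows moved the median difference of all genes from 0.15 to 0.78. With 2 arrays per group, differences under the median interval half-width of 1.36 could seldom be told from 0.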
